A study of Drosophila melanogaster with 16 samples.

Results

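The genes described here are those whose transcripts stood highest around dawn, at zeitgeber time 22 or 02 (ZT22 or ZT02, hours after lights on in a 12-hour light and 12-hour dark cycle), in sorted Drosophila clock neurons. Cells with at least 4 unique molecular identifiers (UMIs) of the clock transcripts Clk, per, tim and cwo together were called clock-positive, and their UMIs were summed per library, scaled to 10000 UMIs (TP10K) and averaged per time point. A gene was a member if its highest time mean was at least 0.5 TP10K, at least 2 times its lowest, and fell at ZT22 or ZT02. Clk, per, tim, cwo and the mitochondrial genes were left out. Of 17299 genes in the table, 3156 reached the level minimum, 340 of these also varied 2-fold, and 161 were members (5.10% of 3156), of which 73 peaked at ZT22 and 88 at ZT02. The members were therefore selected on their time-point means, so those means are given as a description with no test.

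Flies for the single-cell libraries carried the broad clock driver Clk856-GAL4 with UAS-EGFP, crossed to the split driver R11B03-AD; VT002670-DBD, which adds dorsal neurons of the DN3 group. Equal numbers of males and females were kept in light-dark cycles for a minimum of 3 days and their brains dissected, and GFP-positive cells were sorted into 10 single-cell libraries, with a single library at ZT10 and at ZT18 and a pair of replicates at each of the other 4 times. A further 6 bulk libraries came from GFP-positive neurons sorted at ZT02 from the drivers R11B03-AD; R77H08-DBD, R11B03-AD; VT055068-DBD and SS00367, each with UAS-EGFP and 2 replicates. The ages of the dissected flies are not given in the sources used here. A driver marks the cells in which its enhancer is active and not a cell type as such. The study's methods for the sort state that the saline contained blockers of neuronal activity, and that the tissue was dissociated with papain.

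In the fly clock, the Clk and cycle proteins activate per and tim in the evening, and the Per and Tim proteins shut that activation down late at night. Transcripts that peak near dawn therefore run opposite to the direct Clk targets, and the best known of them, Clk itself, was left out by the rule. Near dawn the network of lateral and dorsal clock neurons shifts flies from night sleep to morning activity through peptides, amines and fast transmitters. The single-cell kit reads the 3′ ends of transcripts, so the level of a gene is comparable between cells and libraries, and levels of different genes are not ranked against each other here.

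The table held 23921 cells, of which 10916 were clock-positive (194 to 1899 per library, 2026913 to 15215785 UMIs per library), 6076 had no UMI of the clock transcripts and 6929 had 1 to 3. Replicate 1 of ZT02 and replicate 1 of ZT14 were small, with 194 and 402 clock-positive cells. Only 55 cell barcodes occurred in more than 1 library. ZT02 and ZT14 were collected together on 2 days on which no other time was collected, so a difference between ZT02 and ZT06, ZT10, ZT18 or ZT22 and the collection day cannot be told apart. ZT22 shared 1 day with ZT10 and 1 day with ZT06. The labels do not say how many separate animals or dissections lie behind a library, so the spread between libraries may be partly technical.

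When all cells were clustered without the members and the clock genes, 22 of 49 clusters stood out in Clk, per and cwo and are called clock neuron clusters. Of these, 16 received a name ending in "-like" from markers other than the members. The clock-positive cells did not all lie there: 8871 fell in clock neuron clusters and 2045 in other clusters, 12.9 to 24.5% of the clock-positive cells of a library. The same division ran through the members. Of the 161, 75 met the same rule in the clock-positive cells of the clock neuron clusters alone (25 at ZT22 and 50 at ZT02). A separate 75 had most of their peak-time UMIs in other clusters (47 at ZT22 and 28 at ZT02), and the remaining 11 (Hsp68, orb, Eip78C, CG34370, dnr1, NetB, wry, toc, Piezo, fipi and CG13995) did neither. The median share of UMIs in clock neuron clusters was 60.3% over members and 82.5% over the other genes at the level minimum.

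Across the 161 members, both peak-time libraries lay above every other library for 64 (23 at ZT22 and 41 at ZT02), beside 30.8% of the 1226 genes at the level minimum that were highest at either time. Within a collection day, 139 members were higher at their peak time on both days, 56 of the ZT22 members against ZT10 and ZT06 and 83 of the ZT02 members against ZT14, beside 76.2% of the 1226 genes. These are the values that chose the members. The 2 peak-time libraries themselves differed by 3-fold or more for 21 members. All 161 are annotated as protein-coding, with 31 on the X chromosome and none on chromosomes 4 or Y. RpL39, CG42346 and CG4238 lay just inside the ratio limit and sns, Chd64 and whd just outside it, all at 2.0 when rounded. At the level limit CG31205, wun and CG14661 lay inside with highest means of 0.503, 0.514 and 0.519 TP10K, and daw, aay and TrpA1 lay outside at 0.496, 0.493 and 0.470 TP10K. Without replicate 2 of ZT02 the rule returned 244 genes, of which 142 were among the 161.

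**Figure D1:**
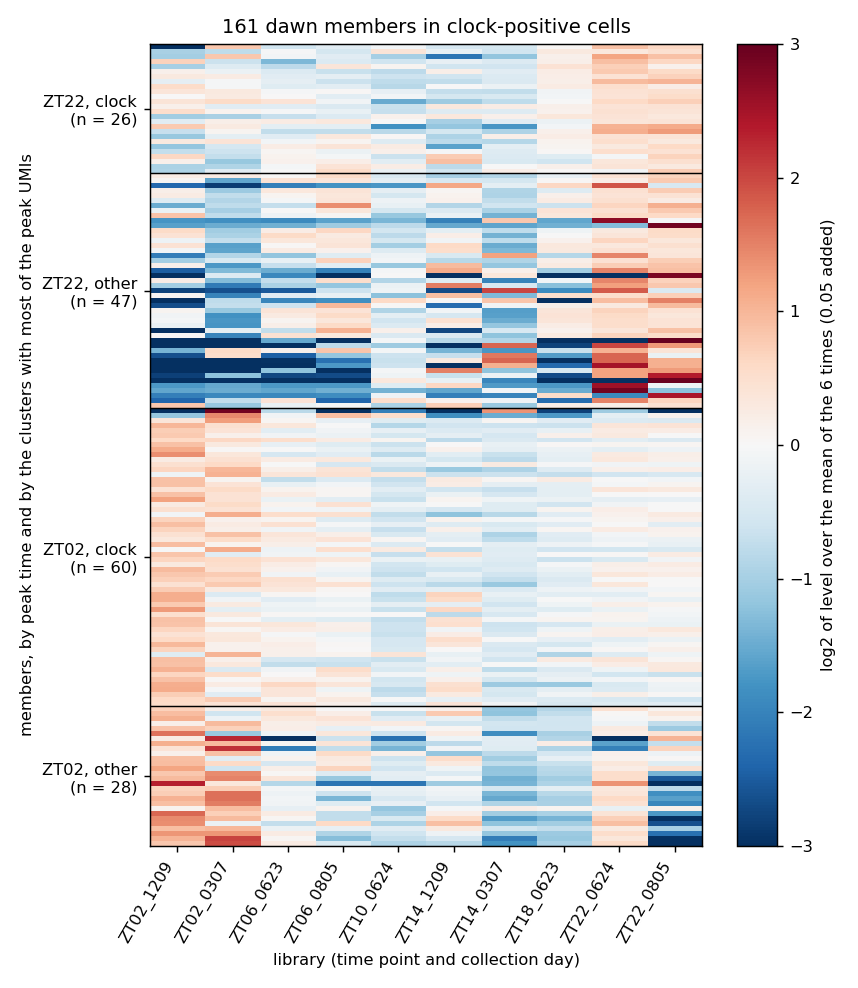
Level of the 161 members in the clock-positive cells of each library, on a log2 colour scale relative to the mean of the gene over the 6 times. Columns are libraries, labelled by time and date code, and rows are genes. The 73 ZT22 members and the 88 ZT02 members are highest in the libraries that the rule used to choose them, and the replicates of 1 time are not equally high for every gene.

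The neuropeptide CCHa1 (CCHamide-1, chr3R:14092504-14096835, minus strand, dm6) is the DN1a peptide through which these dorsal neurons address the small lateral neurons. Its level was 6.55 and 5.51 TP10K in the ZT22 libraries, 0.138 and 6.26 at ZT02, 2.33 and 2.79 at ZT06, 3.32 at ZT10, 2.49 and 2.44 at ZT14 and 3.71 at ZT18 (replicate 1 before replicate 2 here and below). The low ZT02 library held 1 clock-positive cell of the DN1a-like cluster, and the other held 48. CCHa1 stood at 111 TP10K in the DN1a-like cluster and at 0.424 in the next highest clock neuron cluster. Counted within DN1a-like cells alone, it was 156 in the 1 ZT02 library with at least 5 such cells and 156 and 153 at ZT22, against 75.5 to 109 in the libraries of the other times. Dawn levels of CCHa1 per DN1a-like cell were thus above those of every other library, at both ZT22 and ZT02.

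Trissin, a cysteine-rich neuropeptide with its own receptor TrissinR, was the ZT02 member with the largest ratio, and a single library set it. The clock-positive cells of ZT02 replicate 2 gave 18.1 TP10K, those of ZT02 replicate 1 gave 0.00493, ZT14 replicate 2 gave 6.20 and the remaining 7 libraries 0.0114 to 1.35. The Trissin UMIs lay in cluster 16, a clock neuron cluster led by ITP, Trissin, CG14340 and NPF. Trissin stood there at 210 TP10K in ZT02 replicate 2, 94.0 in ZT14 replicate 2 and 0.00921 to 26.4 elsewhere. Too few cells of cluster 16 were held by ZT02 replicate 1, which gives no value. At its peak time, 38 clock-positive cells held all of its UMIs and 13.3% came from 1 cell. The 2 libraries with the highest values were collected on the same day, and without ZT02 replicate 2 the direction turned (log2 of the peak-time mean over the other times −4.34).

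Among the other peptides, AstCC (allatostatin double C) and sNPF (short neuropeptide F, a modulator of feeding and sleep) differed in how far a cell type carried their pattern. AstCC was 0.789 and 0.884 TP10K at ZT22 and 0.829 at ZT10, with 0.291 to 0.774 in the other libraries, and it was concentrated in the DN3_2-like a cluster (10.4 TP10K, against a median of 0.0334 over clock neuron clusters). Its ZT22 and ZT10 libraries overlapped. sNPF was 9.87 and 6.66 TP10K at ZT02, 6.23 and 6.53 at ZT22, 4.24 and 5.29 at ZT14 and 3.20 to 5.04 at the other times. sNPF stood highest in the DN3_2-like b cluster (78.5 TP10K), and within that cluster its highest mean was at ZT14 (91.4), with 64.0 at ZT02. The DN3_2-like b cluster made up 4.12% of the clock-positive cells in ZT02 replicate 1 and 1.84 to 2.66% in the other libraries, and the part of this difference in the sNPF level was not tested. Of the 22 neuropeptide genes at the level minimum, 5 were members, beside 5.10% of all genes at that level. The fifth was Nplp2, which lay outside the clock neuron clusters.

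The peptide-processing enzyme amon (amontillado, the fly prohormone convertase 2) peaked at ZT02 and stayed high through the morning. Its level was 12.8 and 13.1 TP10K at ZT02, 12.2 and 10.1 at ZT06, 9.01 at ZT10, 4.93 and 6.32 at ZT14, 5.65 at ZT18 and 6.81 and 6.27 at ZT22. All 5 libraries of ZT02, ZT06 and ZT10 were above all 5 libraries of the evening and night. Its 2-fold difference from ZT14 held on both collection days (2.60 and 2.07), and in 17 of 22 clock neuron clusters its highest mean fell at ZT22 or ZT02. The other 9 peptide-processing genes at the level minimum were not members.

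Among the monoamine genes, Tbh (tyramine beta-hydroxylase, the last step of octopamine synthesis, chrX:7995697-8027394, plus strand) was 5.35 and 6.41 TP10K at ZT22, 4.81 and 4.64 at ZT02, 4.53 at ZT18, 3.09 and 3.27 at ZT06, 2.54 at ZT10 and 2.56 and 2.93 at ZT14. Both ZT22 libraries lay above all others, and the 5 libraries of ZT06, ZT10 and ZT14 were the lowest. Of 19 clock neuron clusters in which Tbh was measured at every time, 17 had their highest mean at ZT22 or ZT02. It was strongest in the LNv-like cluster, the lateral ventral neurons, where it was 26.3 and 30.9 TP10K at ZT22, 25.2 at ZT18, 11.6 at ZT02, 7.56 and 10.5 at ZT06, 3.68 at ZT10 and 3.72 at ZT14.

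Among the receptors for amines, Oamb, an octopamine receptor, was 0.483 and 1.15 TP10K at ZT02, 0.760 and 0.731 at ZT06, 0.570 and 0.634 at ZT22, 0.398 at ZT18, 0.288 at ZT10 and 0.193 and 0.265 at ZT14. Its ZT02 replicate 1 fell below the ZT06 and ZT22 libraries, and 11 of 13 clusters had a dawn maximum. Dop1R2, a dopamine receptor, was 1.92 and 2.02 TP10K at ZT22 and 0.558 to 1.12 elsewhere, with no overlap. In the DN1p_2-like cluster Dop1R2 was 14.2 and 15.5 TP10K at ZT22 against 2.15 at ZT10. That name rests on 3 of 8 markers, and the leading genes DIP-theta, CG9650, ham, sdk and gl are shared with the DN2-like cluster. The largest share of the peak-time UMIs of Dop1R2 lay in DN2-like cells (25.4%). The second octopamine receptor among the members, Octbeta2R, had most of its UMIs outside the clock neuron clusters, and its ZT02 replicates gave 6.37 and 2.20 TP10K, on either side of most other libraries. Its direction turned when ZT02 replicate 1 was left out (log2 −0.50) and when the clock-positive cells of the clock neuron clusters alone were counted (−0.21).

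Peptide receptors were 4 of the members, of 13 at the level minimum, beside 5.10% of all genes at that level. Among the clock neuron clusters the level of each was highest in a DN3-like one. Of these names, DN3_1-like b rests on 3 of 7 markers and DN3_2-like b on 4 of 6. The largest share of peak-time UMIs lay in DN2-like cells for MsR2 (24.2%) and LPN-like cells for AstC-R2 (21.7%). It lay in cluster 9 for AstA-R1 (19.7%) and DN3_1-like b cells for AstC-R1 (16.4%). MsR2, a myosuppressin receptor, was 0.577 and 0.495 TP10K at ZT22, 0.355 and 0.270 at ZT02 and 0.162 to 0.373 elsewhere, and peaked at dawn in 10 of 11 clusters. Its 2 ZT22 libraries lay above the rest. AstC-R2 was 2.97 and 2.44 TP10K at ZT22, 3.07 and 2.02 at ZT02 and 1.14 to 2.45 elsewhere, and AstC-R1 was 1.14 and 0.348 at ZT02 and 0.260 to 0.701 elsewhere. Both are receptors of allatostatin C and, among the clock neuron clusters, stood highest in the DN3_1-like b cluster (6.52 and 2.57 TP10K). AstC-R2 was nearly as high in the DN3_1-like a cluster (6.16), and AstC-R1 was higher in cluster 1 (4.90), outside the clock neurons. The DN3_1-like b cluster held 8.76% of the clock-positive cells of ZT02 replicate 1 and 1.71 to 6.47% elsewhere. Without ZT02 replicate 1 the direction of AstC-R1 turned (log2 −0.11). AstA-R1, the allatostatin A receptor, was 1.27 and 0.890 TP10K at ZT02 and 0.391 to 0.698 elsewhere, and among the clock neuron clusters it was strongest in the DN3_2-like b cluster (3.51, beside 4.28 in cluster 38 outside them). The muscarinic receptor mAChR-B was 1.42 and 1.13 TP10K at ZT02, 0.993 and 0.978 at ZT22 and 0.615 to 0.766 elsewhere, and mtt, a receptor of the metabotropic glutamate family, was 1.30 and 0.883 at ZT02 and 0.522 to 0.899 elsewhere.

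**Figure D2:**
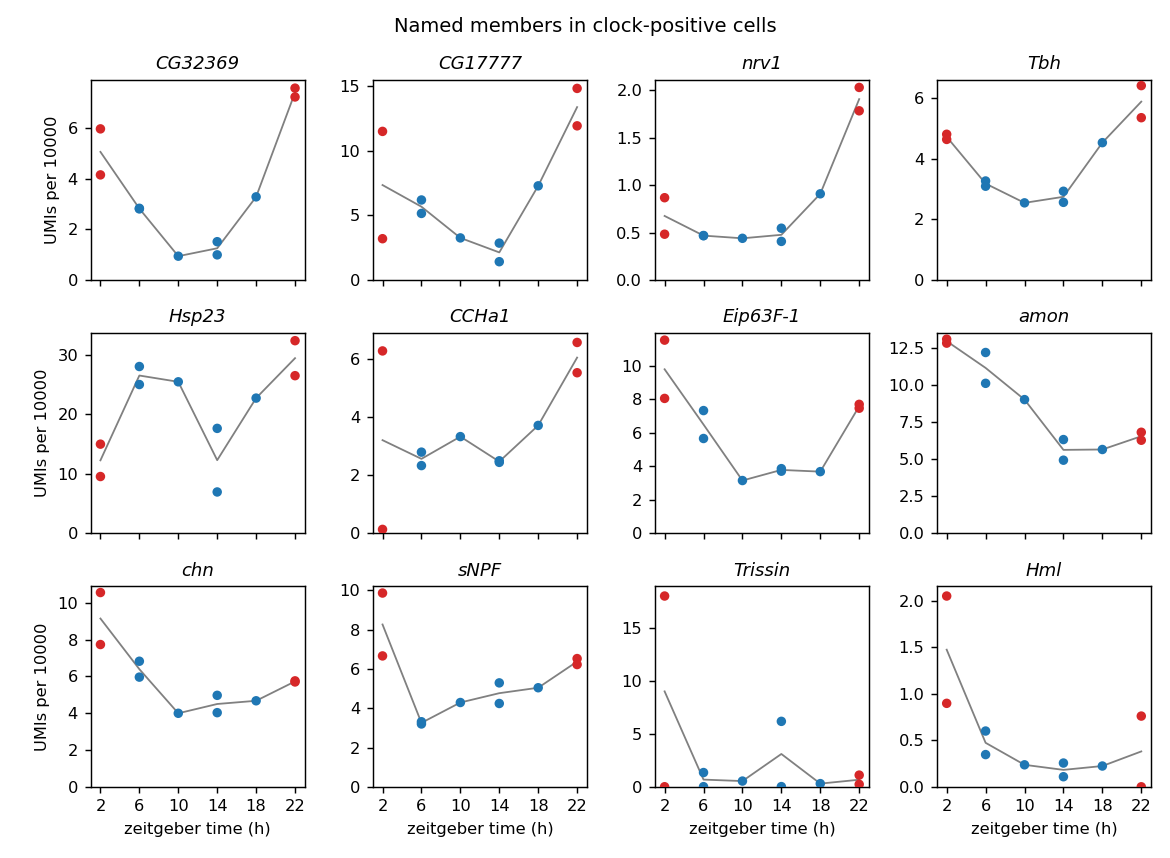
TP10K of named members in the clock-positive cells, 1 point per library against zeitgeber time. For CG32369, Tbh and nrv1 both ZT22 libraries lie above the other 8, whereas the 2 ZT02 libraries of Trissin lie at 0.00493 and 18.1.

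CG32369 (chr3L:7777105-7809825, minus strand) had its highest mean at dawn in more clusters than any other member that could be followed. It was 7.24 and 7.58 TP10K at ZT22, 5.97 and 4.16 at ZT02, 3.29 at ZT18, 2.81 and 2.83 at ZT06, 1.52 and 0.995 at ZT14 and 0.943 at ZT10. The ZT22 mean was 7.86 times the ZT10 mean, and the level was 7.68-fold and 2.68-fold higher at ZT22 within its collection days. All 22 clock neuron clusters had their highest mean at ZT22 or ZT02. The transcriptional repressor gene chn (charlatan) and the kinase gene Dyrk2 did so in 21 of 22 clusters. chn was 10.6 and 7.74 TP10K at ZT02 and 4.0 to 6.83 elsewhere, and Dyrk2 was 3.80 and 5.07 at ZT02 and 1.43 to 3.56 elsewhere. Nhe2, a sodium-proton exchanger, reached 1.41 and 1.81 TP10K at ZT02 against 0.380 and 0.438 at ZT14, with a dawn maximum in 19 of 22 clusters. Of the 60 members that met the rule in clock neuron clusters and could be followed in at least 10 of them, 23 had a dawn maximum in 75% or more, beside 2.69% of all genes followed in as many clusters, and the dawn maximum is also what chose the members.

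Other members were strong in few cell types. Of the 75 members that met the rule in clock neuron clusters, 48 stood at least 4-fold higher in their top cluster than in the median cluster, beside 12.5% of the 2992 genes at the level minimum in these cells. Counted in the cells of that top cluster alone, 32 of the 48 were still highest at ZT22 or ZT02, and 23 of them by 2-fold or more, beside 37.3% of the 375 genes that were 4-fold higher in their top cluster (140, of which 77 by 2-fold or more). The cells are those in which the members were chosen, so these counts are a description. The other 16 were highest at another time there.

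CARPA, a carbonic anhydrase-related protein, was 15.0 and 17.2 TP10K at ZT22 in DN1p_2-like cells and 0.587 at ZT10. The largest share of its peak-time UMIs lay in DN2-like cells (41.4%). CARPA, Dop1R2 and sdk are on the list of DN2 markers, and as members they were not used to name the clusters. In DN1p_1-like cells nrv1 (nervana 1, a beta subunit of the sodium pump) was 15.6 and 13.6 at ZT22 and 8.56 at ZT18, against 0.452 to 2.45 in the other 6 libraries with enough cells. Over all clock-positive cells nrv1 was 1.79 and 2.03 at ZT22 and 0.407 to 0.910 elsewhere. Rgk3, a small GTPase of the RGK family, was 7.10 and 9.18 TP10K at ZT22 in DN1p_1-like cells and 0.452 to 3.96 elsewhere. The ZT22 libraries of nrv1 and Rgk3 lay above the others in DN1p_1-like cells, whereas those of CARPA in DN1p_2-like cells overlapped ZT02 replicate 2 (16.7).

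In the LNv-like cluster, robo3, a receptor for the guidance cue Slit, was 6.89 TP10K at ZT02, 6.79 and 6.18 at ZT06 and 4.84 at ZT10, whereas ZT14 gave 1.39, ZT18 gave 0.351 and ZT22 gave 0.399 and 0.715. The daytime libraries of robo3 were all above the evening and night libraries. CG43902 was also higher by day there, at 72.1 TP10K at ZT02, 59.6 and 76.1 at ZT06 and 56.9 at ZT10. Unlike robo3 it rose through the night, from 4.74 at ZT14 and 10.9 at ZT18 to 19.7 and 21.6 at ZT22. CG34155 was 4.05 at ZT02, 2.32 and 4.20 at ZT22 and 0.104 to 0.932 elsewhere in these cells. ZT02 replicate 1 and ZT14 replicate 1 held fewer than 5 LNv-like cells and give no value. In DN1a-like cells CG34384 was 38.8 TP10K in ZT02 replicate 2 and 3.03 to 14.9 in the libraries of the other times. Fewer than 5 DN1a-like cells were held by ZT02 replicate 1, which gives no value.

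CG17777 was 14.8 and 11.9 TP10K at ZT22, 3.20 and 11.5 at ZT02, 7.30 at ZT18, 6.20 and 5.16 at ZT06, 3.26 at ZT10 and 1.42 and 2.86 at ZT14 over clock-positive cells. It was highest in the DN3_7-like (44.7 TP10K) and DN1a-like (36.6) clusters, and in DN3_7-like cells it was 70.8 and 65.0 at ZT22 against 14.4 to 55.8 in the other libraries. CG7191 was nearly confined among clock neurons to the DN3_2-like a cluster (16.6 TP10K, next 1.09), and there it was 42.1 and 22.9 at ZT22 and 4.3 to 22.5 in the other libraries.

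A group of members centred on cluster 9, a clock neuron cluster led by rho, bab1, CAP and Ms that received no name. It contained the transcription factor genes bab1 and bab2 (bric a brac), rn (rotund) and oc (ocelliless), the secreted guidance cue Sema2b, the cadherin CadN2 and the immunoglobulin surface protein DIP-zeta. Over clock-positive cells bab1 was 0.696 and 0.388 TP10K at ZT02 and 0.153 to 0.291 elsewhere, and DIP-zeta was 1.39 and 0.651 at ZT02 and 0.267 to 0.620 elsewhere. Cluster 9 held 9.28% and 6.44% of the clock-positive cells at ZT02 and 2.83 to 5.97% in the other libraries. Within its cells DIP-zeta was 5.63 TP10K at ZT02 and 5.66 at ZT22 against 1.20 to 2.86 at the other times, CadN2 was 10.2 at ZT02 against 5.93 to 8.28, and rn and bab2 were highest at ZT14 (6.62) and ZT18 (6.34). Whether the share of cluster 9 cells had a part in the levels of these genes over all clock-positive cells was not tested.

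**Figure D3:**
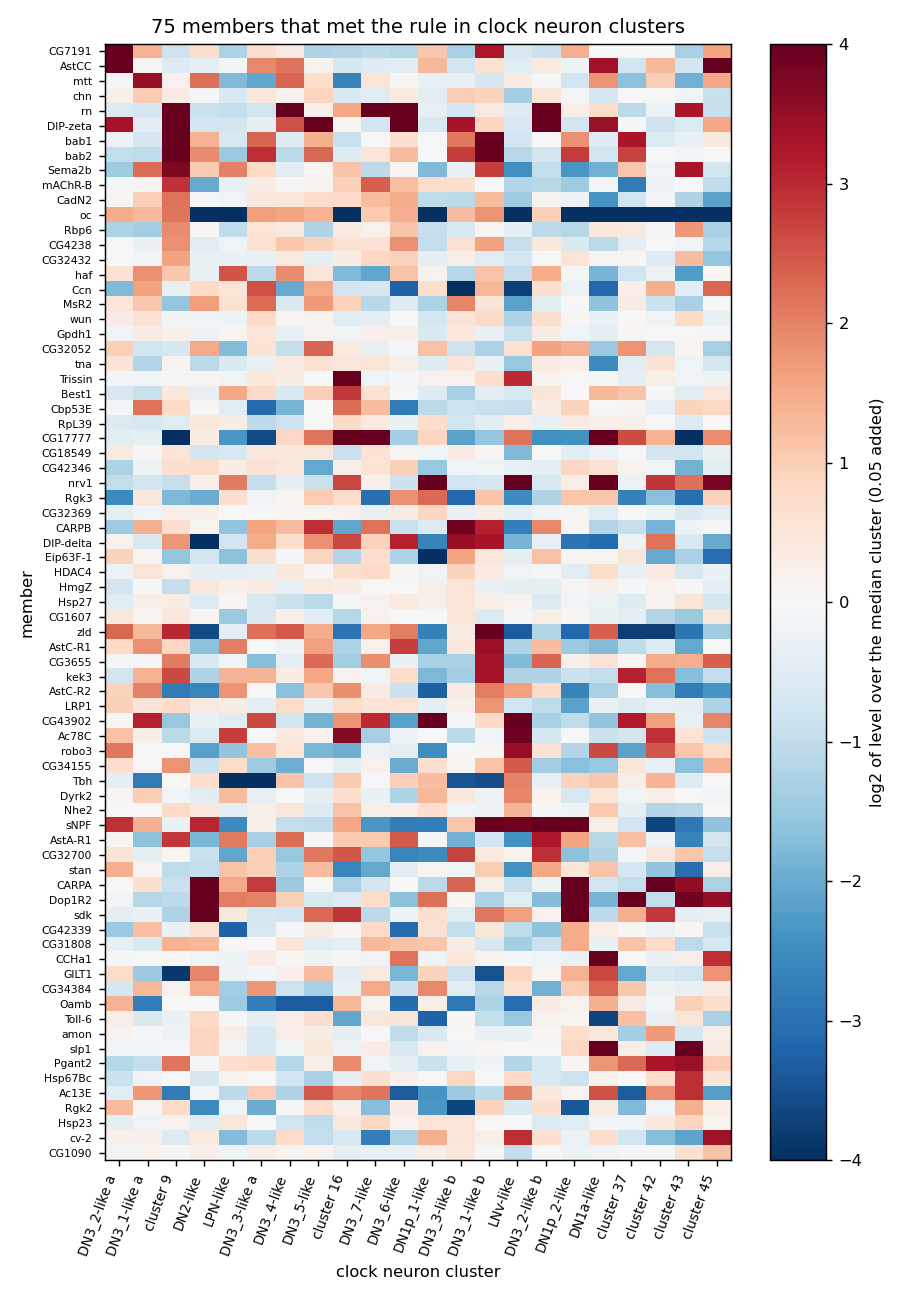
Level of the 75 members that met the rule in clock neuron clusters, as log2 of the level in each of 22 clusters over the median cluster. CCHa1 stands apart in DN1a-like cells and Trissin in cluster 16, whereas the top cluster of Hsp27 and CG1607 is 1.44 and 1.41 times the median cluster.

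Among further members that met the rule in clock neuron clusters, the adenylyl cyclase gene Ac13E was 3.17 and 3.68 TP10K at ZT02 and 1.54 to 3.35 elsewhere, and its relative Ac78C was 0.696 and 0.716 at ZT22 and 0.241 to 0.679 elsewhere. The histone deacetylase gene HDAC4 was 5.34 and 5.38 TP10K at ZT22, with a lowest value of 2.51 at ZT10 and a highest other value of 5.02 in ZT14 replicate 1. Cbp53E was 3.05 and 3.39 TP10K at ZT02 and 1.30 to 2.45 elsewhere. The peak libraries of Cbp53E, Ac78C and HDAC4 were above all others, and those of Ac13E overlapped ZT06 and ZT22. The bestrophin chloride channel gene Best1 was 0.661 and 0.842 at ZT02 and 0.191 to 0.668 elsewhere, and cv-2, which encodes a secreted BMP-binding protein, was 0.735 and 1.72 at ZT02 and 0.468 to 1.12 elsewhere. The RNA-binding protein gene Rbp6 was 39.0 and 21.7 TP10K at ZT02 and 13.7 to 25.4 elsewhere, so that 1 of its ZT02 libraries fell within the range of the other times. The genes CG32432 (1.27 and 1.23 at ZT02, 0.400 to 0.908 elsewhere), CG18549 (1.16 and 1.09, 0.398 to 0.981) and CG1607 (1.21 and 1.16, 0.460 to 1.03) had both ZT02 libraries above all others, with close replicates. The adhesion genes stan (flamingo, an atypical cadherin) and sdk (sidekick) did too, at 0.646 and 0.624 against 0.300 to 0.523 and at 0.671 and 0.569 against 0.244 to 0.493.

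The surface molecules gave 6 members of 58 measured genes of that list, and 2 of 5 dpr and DIP genes, all peaking at ZT02. Over all genes at the level minimum 5.10% were members. Besides those already given, Toll-6 was 2.56 and 1.78 TP10K at ZT02 and 0.957 to 1.90 elsewhere, kek3 was 0.814 and 0.577 at ZT02 and 0.264 to 0.627 elsewhere, and DIP-delta was 2.95 and 2.09 at ZT02 and 1.04 to 1.84 elsewhere. DIP-delta was separated from the other times in both libraries, and Toll-6 and kek3 were not. NetB, a netrin, was 1.48 and 1.35 at ZT02 and 0.699 to 1.35 elsewhere.

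The heat shock list gave 5 members of 16, beside 5.10% of all genes at the level minimum. All 5 were assigned to ZT22, although their lowest rather than their highest times set them apart. Hsp23, a small heat shock protein, was 26.5 and 32.3 TP10K at ZT22, 25.0 and 28.0 at ZT06, 25.4 at ZT10, 22.7 at ZT18, 6.95 and 17.6 at ZT14 and 9.55 and 15.0 at ZT02. Hsp27 was 11.5 and 10.8 at ZT22, 8.48 and 11.8 at ZT06 and 4.53 and 4.72 at ZT02. For both genes the ZT22 libraries overlapped those of ZT06, and the 4 libraries of the 2 days on which ZT02 and ZT14 were collected included the lowest values. Hsp67Bc, Hsp68 and Hsp70Bc were 2.03 to 2.24 times higher at their highest than their lowest time, and Hsp70Bc belongs to a set of nearly identical gene copies whose reads the counting could split. HmgZ, an HMG-box chromatin protein, was 3.64 and 3.84 TP10K at ZT02 and 9.97 and 9.45 at ZT22. In HmgZ too the ZT22 libraries were close to those of ZT18 (9.49) and ZT14 (9.36 and 8.33).

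Several lists gave few or no members. None of 21 clock genes and regulators, 20 sleep and excitability genes, 59 respiratory chain genes, 33 translation factors or 13 proteasome genes was a member, and 1 of 81 cytoplasmic ribosomal protein genes was (RpL39, at the ratio limit). Nuclear receptors and ecdysone response genes gave 3 of 16, among them Eip63F-1, a calmodulin-like protein, at 11.5 and 8.05 TP10K at ZT02, 7.46 and 7.70 at ZT22 and 3.15 to 7.32 elsewhere. Metabolism gave 1 of 21, the glycerol-3-phosphate dehydrogenase Gpdh1, at 1.71 and 1.48 TP10K at ZT22, 1.49 and 1.60 at ZT02 and 0.635 to 1.29 elsewhere. Both ZT22 and ZT02 libraries of Gpdh1 lay above all other libraries. Immune and stress genes gave 5 of 17 (MtnA, Rel, Drs, dl and TotM), and none of these met the rule in clock neuron clusters.

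Piezo, a mechanosensitive channel, and Eip78C, a nuclear receptor of the ecdysone response, had their UMIs spread over clock neuron and other clusters. Piezo was 1.29 and 0.581 TP10K at ZT02 and 0.447 to 0.977 elsewhere, and Eip78C was 0.627 and 0.416 at ZT02 and 0.247 to 0.423 elsewhere. The lower ZT02 replicate of each lay within the range of the other times. The direction of Piezo turned without ZT02 replicate 1 (log2 −0.27) and with UMIs pooled per time point (−0.0083).

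The members outside the clock neuron clusters came mainly from 4 groups of cells, named here by their leading genes because no fixed marker list named them. Cluster 48 (Hml, Ppn and lectin-28C, 89 cells in all) held the largest share of the peak-time UMIs of 22 ZT02 members, among them the hemocyte gene Hml (hemolectin), the basement membrane genes Col4a1, vkg, Ppn and SPARC, the antifungal peptide gene Drs and the NF-kappa-B gene Rel. Hml was 0.898 and 2.05 TP10K at ZT02, 0.600 and 0.347 at ZT06, 0.236 at ZT10, 0.256 and 0.108 at ZT14, 0.223 at ZT18 and 0.761 and 0.00 at ZT22. Nplp2 was 6.23 and 1.53 at ZT02, 3.11 and 0.0577 at ZT22 and 0.224 to 0.644 elsewhere. In both genes 1 ZT22 library came near or above the lower of the ZT02 libraries, and the other was at or near 0.

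Cluster 48 cells made up 1.55% and 1.54% of the clock-positive cells at ZT02 (3 and 23 cells) and 0.140 to 0.732% in the other libraries (2 to 8 cells). For 6 more of its members both ZT02 libraries lay above all others. Among the 1226 genes at the level minimum that were highest at ZT22 or ZT02, 30.8% had such peak-time libraries. Ppn was 1.28 and 2.62 TP10K at ZT02 and 0.0128 to 0.781 elsewhere, and Col4a1, a collagen IV chain, was 1.61 and 3.11 at ZT02 and 0.232 to 1.25 elsewhere. The lectin genes lectin-28C (1.85 and 1.33, 0.0205 to 1.11 elsewhere) and lectin-24Db (0.543 and 0.541, 0.00 to 0.289 elsewhere) were alike in this, as were CG5080 (0.548 and 0.867, 0.0448 to 0.392) and CG14629 (0.414 and 0.676, 0.0141 to 0.291). Counted within cluster 48, the ZT02 level of its 22 members was a median of 1.07 times the median of the other times (0.176 to 2.04). ZT02 replicate 1, ZT14 replicate 1 and ZT22 replicate 2 held too few cells of cluster 48 and give no value. The ZT02 levels within this cluster are therefore those of replicate 2 alone. Hml was 77.2 TP10K at ZT02 there and 37.8 to 67.9 at the other times, and Drs was 9.30 at ZT02 and 18.5 to 89.1 elsewhere. Over the 6 hemocyte and fat body markers, which include Hml, the summed level in clock-positive cells was 1.63 and 2.75 TP10K at ZT02 and 0.168 to 1.13 in the other libraries.

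Cluster 23 (CG9759, Nplp3, CG6409 and EbpIII) held the largest share of the peak-time UMIs of 21 ZT22 members, and these had the largest ratios of all. They included genes of secreted immune and stress proteins (BomT3, IM33, Listericin, Drsl5 and TotM), the transferrin Tsf1, the odorant-binding protein Obp19d and the corneal protein retinin. CG9759, with the largest ratio among members measured at every time, was 5.8 and 2.12 TP10K at ZT22, 2.11 in ZT14 replicate 2 and 0.00 to 0.621 in the other libraries. CG6409 was 0.113 and 11.2 at ZT22 and 0.00738 to 1.26 elsewhere, and Drsl5 was 0.00217 and 4.66 at ZT22 and 0.00 to 0.701 elsewhere. Of the next largest ratios, CG11458 was 2.42 and 1.48 TP10K at ZT22 and 2.02 in ZT14 replicate 2, and IM33 was 1.17 and 0.202 at ZT22 and 1.33 in ZT14 replicate 2. CG5945 was 0.747 and 1.75 at ZT22 and 0.00 to 0.265 elsewhere. In CG15282 (1.04 and 0.0128), CG7203 (0.00543 and 1.08), retinin (0.00109 and 3.13) and TotM (0.0130 and 1.10) only 1 of the ZT22 libraries was high. In Drsl5, 83.0% of the peak-time UMIs came from 1 cell, and without ZT22 replicate 2 the direction of both genes turned (log2 −1.61 for CG6409 and −2.26 for Drsl5).

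Cluster 23 supplied 18 and 20 clock-positive cells at ZT22 (1.65% and 2.28%), 35 at ZT10, 27 in ZT14 replicate 2 and 0 to 7 in each other library. Within its cells the ZT22 level of the 21 members was a median of 1.78 times the median of the other times (0.522 to 25.9). EbpIII, a gene first described in the ejaculatory bulb, was 10.5 and 6.47 TP10K over clock-positive cells at ZT22 and 10.4 in ZT14 replicate 2, and within cluster 23 its highest mean was at ZT14.

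Cluster 2 (cDIP, CG4716 and eyg) held the largest share of the UMIs of 20 ZT22 members and 2 ZT02 members. They included Gs2, the glutamine synthetase of glia, the gap junction gene ogre (innexin 1), the inward rectifier potassium channel gene Irk2, the retinoid dehydrogenase Pdh and the NF-kappa-B gene dl (dorsal). Pdh was 35.2 and 29.9 TP10K at ZT22, 29.0 and 29.5 at ZT06, 28.8 at ZT18, 23.7 and 10.1 at ZT02, 21.0 and 7.06 at ZT14 and 11.9 at ZT10. Both ZT22 libraries of Pdh lay above all others, but the lower of them (29.9) was close to those of ZT06 and ZT18. Cluster 2 cells made up 7.59% and 6.15% of the clock-positive cells at ZT22 and 2.08 to 8.96% elsewhere. Within cluster 2, 21 of the 22 members were highest at ZT22 or ZT02, 10 of them by 2-fold, beside 34.9% and 10.5% of all genes at the level minimum there, and these cells took part in choosing the members. ogre was 23.7 and 25.3 TP10K there at ZT22, 25.2 and 18.2 at ZT14, 16.2 at ZT18 and 8.55 to 19.4 elsewhere. Gs2 was 2.30 and 2.60 TP10K over clock-positive cells at ZT22, 2.65 and 2.14 at ZT06 and 0.634 to 2.41 elsewhere, and Irk2 was 0.957 and 0.884 at ZT22 and 0.194 to 1.01 elsewhere. Hnf4, a nuclear receptor of lipid metabolism, was 0.734 and 0.753 at ZT22 and 0.261 to 0.698 elsewhere, and dl was 0.525 and 0.652 at ZT22 and 0.147 to 0.495 elsewhere, both without overlap. The summed level of 6 glia markers was 2.55 and 2.80 TP10K at ZT22 and 0.773 to 2.86 in the other libraries. Most of that sum was Gs2, itself a member, with 2.30 and 2.60 at ZT22. In cluster 2 Gs2 stood at 23.3 TP10K and the other glia markers at 0.00464 (repo) to 0.749 (moody). The part of glial cells in these levels was not tested. Counting only cells with at least 8 clock UMIs turned the direction of Pdh (log2 −0.17) and Gs2 (−0.41).

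Cluster 22 (CG4797, CG3168 and Tret1-1) held 6 ZT22 members, among them the metallothionein gene MtnA and CG6910, now named Miox (myo-inositol oxygenase). Of the glia markers, repo stood at 1.95 TP10K in cluster 22 (1.46 in the glia-like cluster), moody at 1.06 and Gs2 at 2.95. The markers Gat, alrm and wrapper were at 0.00434 to 0.0478 there. The part of glial cells in the levels of these members was not tested. MtnA was 1.0 and 1.36 TP10K at ZT22 and 1.72 in ZT06 replicate 2, with 0.192 to 0.526 in the other libraries. In cluster 22 itself MtnA was 50.3 and 61.3 TP10K at ZT22 and 22.4 to 46.5 in 6 other libraries. In ZT02 replicate 1 and ZT14 replicate 1, with 5 and 7 cells there, it was 0.351 and 0.00, and CG3168 and CG14687, other genes of this cluster, were at 0 as well. The transmitter genes Gad1 (GABA synthesis) and Vmat (vesicular monoamine transporter) also lay outside the clock neuron clusters, with 4.92% and 5.15% of their peak-time UMIs inside. Gad1 was 0.340 and 1.26 TP10K at ZT02 and 0.0186 to 0.411 elsewhere, and Vmat was 11.1 and 10.3 at ZT02 and 1.69 to 6.97 elsewhere. CG14989 was 2.33 and 9.59 at ZT02 and 0.0380 to 3.98 elsewhere. Of these 3 genes only Vmat had both ZT02 libraries above the other 8, and its direction turned with at least 8 clock UMIs (log2 −0.017) and without the 5% of cells with the most UMIs (−0.25). Gad1 overlaps the member CG14989 on the opposite strand, and whether the counting used strand is not stated, so their UMIs may not be separable.

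**Figure D4:**
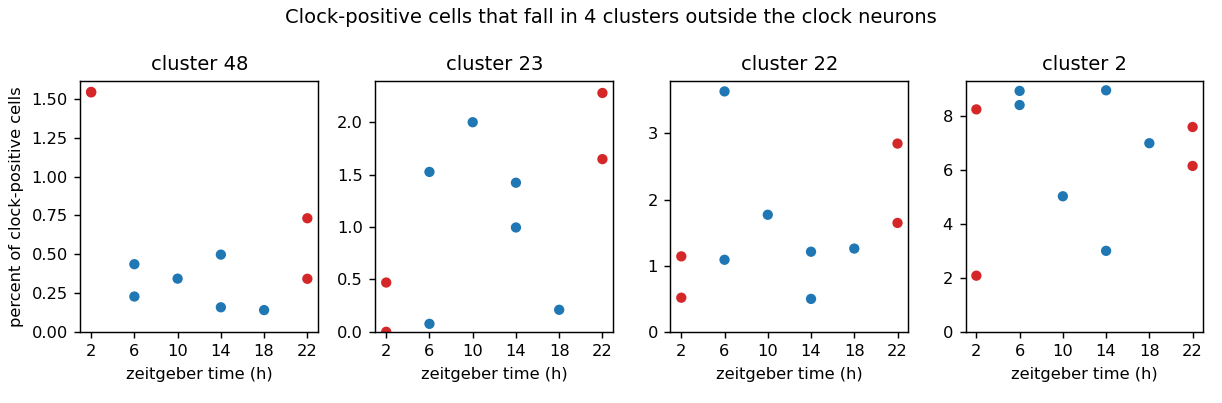
Percent of the clock-positive cells of each library that fell in clusters 48, 23, 22 and 2, against zeitgeber time, with ZT22 and ZT02 in red. In cluster 48 both ZT02 libraries lie at 1.5% (1 point hides the other) above the 8 others, and in the other panels the dawn libraries are not set apart.

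Whether the members vary in cells that the rule did not use was tested in the 6076 cells without a clock UMI, which include neurons and other cells caught in the sort (105 to 2454 per library, median 2558 to 4265 UMIs per cell). These cells came from the same libraries and collection days that chose the members. The test is therefore not independent of differences between libraries or days. A 24-hour cosine was fitted to the sums of the 10 libraries with edgeR. Of the 8547 genes tested, 0% (0 genes) passed an adjusted p of 0.05, the lowest adjusted p being 0.600, and none of the 161 members did (lowest 0.811). At an unadjusted p under 0.05, 22 members passed and 20 of them had a fitted peak between ZT20 and ZT04, where over all genes 4.57% passed and 3.72% passed with such a peak. A fitted peak in that window, whatever the p, occurred for 60.2% of the members and 38.6% of all genes tested. The DESeq2 likelihood ratio test called 10 genes, of which ogre and Gs2 were members.

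Gs2 had the smallest p among members (unadjusted p = 0.00135, adjusted p = 0.811, edgeR), with 7.73 TP10K at ZT02 and 8.69 at ZT22 and 2.01 to 5.19 at the other times in clock-negative cells. ogre followed (unadjusted p = 0.00275, edgeR), with 6.14 TP10K at ZT22 and 0.448 to 2.07 elsewhere. Both are genes of cluster 2. Of the members that met the rule in clock neuron clusters, CG32369 was 2.67 TP10K at ZT02, 2.62 at ZT22 and 1.38 to 1.79 at the other times in clock-negative cells (unadjusted p = 0.00872, adjusted p = 0.957, edgeR), and cv-2 and Trissin also had unadjusted p under 0.01, as did TotM and CG7409 among the others. For Tbh the clock-negative cells had their highest means at ZT06 and ZT10 (2.93 and 2.54 TP10K) and their lowest at ZT22 (0.841).

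Clock-positive cells were then compared with clock-negative cells of the same libraries (edgeR, library as a block, adjusted p under 0.05 and at least 2-fold). Of the 161 members, 33 were higher and 25 lower in clock-positive cells, where 5.83% and 3.45% of the genes at the level minimum were. The median log2 difference was 0.30 over the members and 0.08 over those genes. Of the 75 members that met the rule in clock neuron clusters, 22 were higher and 8 lower. Clock-negative cells were shallower than clock-positive cells in every library (median 2558 to 4265 UMIs against 5398 to 9997). Set against clock-negative cells outside the clock neuron clusters, the clock-positive cells of those clusters had 28 members higher and 81 lower. That setting takes the other clusters out of the clock-positive side only, and 75 members had most of their peak-time UMIs there. With the limit raised to 8 clock UMIs 41 members were lower. The shares of all genes in these settings were not counted.

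Of the 5 largest differences, 3 were in neuropeptide genes. CCHa1 was higher by 6.70 on the log2 scale (SE 0.42, adjusted p = 2.96e-07, edgeR), CG17777 by 6.16 and AstCC by 5.08, and Trissin by 4.86 and CG7191 by 3.94 followed. On average over times, CCHa1 was 3.55 TP10K in clock-positive and 0.0447 in clock-negative cells. Tbh was also higher (log2 1.49, SE 0.33, adjusted p = 0.00307, edgeR), and so was amon (1.01, adjusted p = 0.000271, edgeR). The lowest were CG14989 (−4.35), Gad1 (−3.76), Vmat (−2.96), CG5945 (−2.58) and Octbeta2R (−2.58), none of which met the rule in clock neuron clusters. Of the members that did, Cbp53E, a calbindin, was lower by −2.19 (2.04 against 9.26 TP10K) and Sema2b by −1.91.

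**Figure D5:**
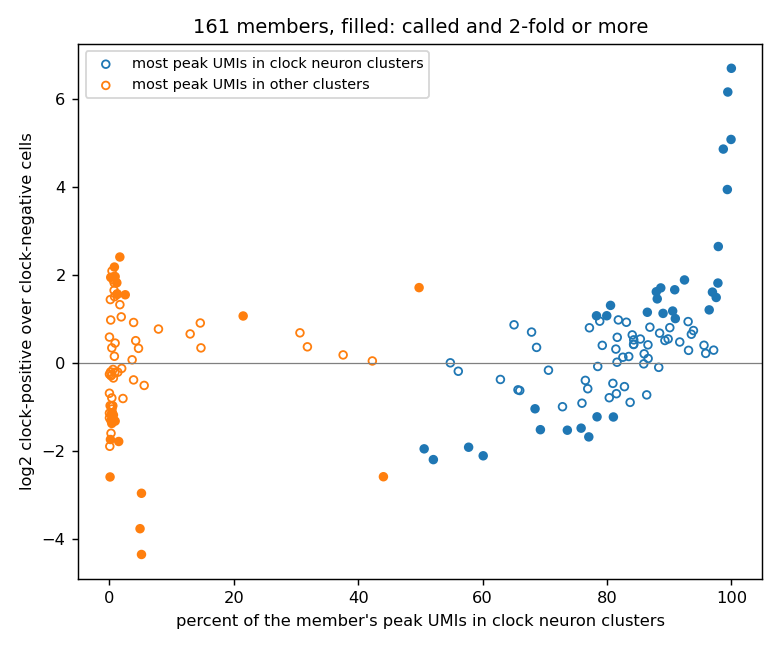
Log2 difference between clock-positive and clock-negative cells for the 161 members, against the percent of each member's peak-time UMIs that lay in clock neuron clusters. Filled points passed the test at 2-fold, and the 5 largest increases (CCHa1 at 6.70 to CG7191 at 3.94) all lie near 100%.

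The bulk libraries of 3 drivers, all sorted at ZT02, show which members differ between neuron groups at one time. In such samples fewer cells of a type and less RNA per cell cannot be told apart. Each driver was compared with the mean of the other 2 with limma on log2(value + 1), so the comparisons share all 6 libraries, and 132 members were tested. For R77H08, 8 members were higher and 18 lower, beside 0.540% and 1.84% of all genes tested. For SS00367, 5 were higher and 17 lower, beside 0.504% and 2.02%. For VT055068, 26 were higher and 12 lower, beside 7.38% and 1.39%. With a pseudocount of 0.1 the calls came to 0 higher and 3 lower for R77H08, 0 and 1 for SS00367 and 6 lower for VT055068.

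SS00367 neurons had the highest AstCC, with normalized values of 14.7 and 39.3 (replicates A and B), 0.00 and 1.13 in R77H08 and 0.00 in both VT055068 libraries (log2 difference 4.38, SE 0.68, adjusted p = 0.00441, limma). The octopamine genes were high in the same libraries. Tbh was 537 and 486 in SS00367, 317 and 328 in R77H08 and 78.1 and 189 in VT055068 (1.36, SE 0.30, adjusted p = 0.0272, limma). Oamb was 138 and 166 in SS00367, 50.6 and 45.1 in R77H08 and 10.4 and 46.9 in VT055068 (2.17, SE 0.42, adjusted p = 0.0151, limma). For these 3 genes both SS00367 libraries lay above the other 4, as they did for Hsp27 (230 in both, 59.5 to 111 elsewhere). The members lowest there were CG6910 (−4.83), CG14687 (−3.72) and kek3 (−3.71). Higher members numbered 3 without VT055068 replicate A and 8 and 14 without R77H08 replicates A and B. No member stayed called higher in SS00367 when either of its own replicates was left out, and 4 and 7 were then called lower (without A and without B), with 8 lower without VT055068 replicate A and 27 without R77H08 replicate A.

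R77H08 neurons had the highest DIP-zeta (15.6 and 125, against 0.00 to 5.95 elsewhere, log2 difference 3.90), bab2 (19.5 and 27.1 against 0.00 to 7.44, 2.86) and kek3 (19.5 and 34.9 against 0.00 to 18, 2.39). These 3 genes are strong in cluster 9 or the DN3_1-like b cluster. The calls rest on the other libraries too, since 0 members remained called higher without SS00367 replicate A and 2 without SS00367 replicate B or VT055068 replicate A. Lower members numbered 5 without VT055068 replicate A, 11 without SS00367 replicate A and 28 without R77H08 replicate B. The lowest members in R77H08 were CG10433 (−4.58), MtnA (−3.87) and CG14687 (−3.62).

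VT055068 libraries stood apart in some genes carried by clusters 2, 22 and 48 of the single-cell data. CG6910 was 811 and 331 in VT055068 and 0.00 to 3.90 in the other 4 libraries (log2 difference 7.52, SE 0.51, adjusted p = 1.18e-06, limma). CG10433 (7.36), CG14687 (7.35) and CG3168 (6.76), all of cluster 22, were higher as well, as were vir-1 of cluster 2 (6.52) and regucalcin and SPARC of cluster 48 (6.35 and 5.65). The summed value of 5 glia markers (repo, alrm, Gs2, moody and Gat) was 129 and 126 in VT055068 and 27.3 to 64.2 in the other 4 libraries, and that of 4 neuron markers was 906 and 1034 against 1003 to 1236. The part of glial RNA in these differences was not tested. The lowest were AstCC (−2.60), rn (−1.97) and Oamb (−1.88), with CadN2 (−1.83), Tbh (−1.73) and mAChR-B (−1.47) also lower. Without VT055068 replicate A, 16 members were called higher and 1 lower, and 6 were lower without SS00367 replicate A or without its replicate B, and 22 without R77H08 replicate A. Since all bulk libraries came from ZT02, they hold no information on the time of day.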

How the data were processed

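Single-cell values are UMI counts per gene and cell that the authors made with Cell Ranger (dm6, annotated exons; versions and strand use not given in the sources used here) and deposited as 1 table, each cell carrying its time and date. The study's methods state filters on genes, UMIs and mitochondrial share and removal of Scrublet doublets, with differing upper UMI limits in the text, and the cells here held 1001 to 24985 UMIs. No cell was removed here, and an alternative left out the 5% of cells with the most UMIs. Bulk values are a normalized signal per gene that the authors deposited after alignment, and their normalization method was not given. In every bulk library 100% of values were whole multiples of 1 read within 0.01, which gave 164631 to 505579 recovered reads per library, and precision was limited accordingly. No per-sample column was left unused.

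Cells were clustered with scanpy 1.11.5 and leidenalg 0.10.2 (2000 variable genes without members and clock genes, 50 components, 3 neighbours in each library, resolution 4). Clock neuron clusters averaged 0.75 or more on the log2 TP10K scale over cwo, Clk and per (lowest 0.960, highest other cluster 0.589), and levels per cluster used libraries with at least 5 cells. Sums per library were tested with edgeR 4.0.16 (TMM, quasi-likelihood, at least 20 counts, Benjamini-Hochberg over all genes tested). Clock-negative sums of the same collection date deviated together (median r 0.253 over 5 pairs, −0.179 over the 40 other pairs), and the date came from the labels. Bulk drivers were compared with limma 3.58.1 with trend, genes needing a value of 1 in 2 libraries. DESeq2 1.42.0 was an alternative in R 4.3.3. The scripts were tested on simulated data. The members and gene lists were chosen with earlier results of these data known. The genes named were those of the largest ratios at each peak time, the highest levels, the threshold neighbours, the list members, and the largest changes or smallest p in each test, beside examples chosen after their values were seen. Coordinates are from the Ensembl annotation of the same assembly, in which 64 members overlap a gene on the other strand.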

Additional observations from a re-analysis of the deposited data

How the results depend on the processing

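Apart from runs that left out a library, the number of members stayed within 1.5 times of 161 under every alternative but 1. It was 102 when all cells of the clock neuron clusters were counted. Leaving out 1 library at a time gave 133 to 244. With log2 of the peak-time mean over the other times, counting cells with at least 8 clock UMIs turned the direction of Drsl5 (−1.51), CG6409 (−1.43), Pdh (−0.17), Gs2 (−0.41) and Vmat (−0.017). Vmat also turned without the 5% of cells with the most UMIs (−0.25). Octbeta2R turned in all cells of the clock neuron clusters (−0.17), in their clock-positive cells (−0.21, an alternative chosen after seeing the data) and with UMIs pooled per time point (−0.036), which also turned Piezo (−0.0083). Leaving out 1 library at a time gave −2.26 to 4.26 for Drsl5, −1.61 to 4.50 for CG6409, −4.34 to 4.21 for Trissin, −0.11 to 1.47 for AstC-R1, −0.50 to 1.01 for Octbeta2R and −0.27 to 0.82 for Piezo. The cause was not tested.

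In clock-negative cells DESeq2 called 2 members and edgeR 0 under every setting. Lower members in clock-positive cells numbered 41 with 8 clock UMIs and 81 with both cell groups taken by cluster, the latter chosen after seeing the data. The shares of all genes in these settings were not counted. A pseudocount of 0.1 in limma left 0 higher and 3 lower for R77H08, 0 and 1 for SS00367 and 6 lower for VT055068, and one of 10 gave 14 higher for R77H08. edgeR on recovered counts gave 8 higher for SS00367. The letters A and B did not pair the bulk samples (r 0.0018 to 0.079), and the replicate block gave 13 higher members for R77H08 and moved no other count past 1.5 times. Leaving out 1 bulk library gave, for higher and lower members, 0 to 11 and 5 to 28 (R77H08), 0 to 14 and 4 to 27 (SS00367) and 16 to 36 and 1 to 22 (VT055068).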
